A study of Mus musculus with 9 samples.

Results

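Natural killer (NK) cells of mice that lack the Janus kinase Tyk2 (Tyk2-/-) were compared with those of wild-type (WT) mice, on 6 of the 9 arrays of the study. The arrays were chosen by their labelled genotype, 3 per genotype, and each Tyk2-/- array was paired with the WT array of the same experiment. The other 3 arrays, from mice with a kinase-inactive Tyk2 (Tyk2K923E), served for the estimate of the spread and as a second set to hold the values against. Of 41345 probe sets, those with 1 gene symbol that reached the median of their array on at least 3 of the 9 arrays stood for 12579 genes, the brightest probe set for each.

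All mice were female and of the C57BL/6N background, and neither their age nor the construction of the Tyk2-/- allele is given in the sources used here. Splenocytes enriched with DX5 beads, which bind the integrin chain CD49b, came from pools of 3 to 4 mice for each genotype in each experiment. Cultures lasted 7 days with human IL-2 (recombinant, 5000 U/ml) and were split on days 4 and 6. Each array thus reads a pool of mice after an IL-2 culture that all genotypes shared, and no culture without IL-2 or with added interferon was part of the groups. The 3 experiments were independent, and values are log2 RMA values, a summary of probe brightness in which 1 unit is a doubling.

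TYK2 sits on the receptors for IL-12, IL-23, type I interferons and the IL-10 family, where it phosphorylates STAT proteins together with a partner Janus kinase. After type I interferon, a complex in which IRF9 contacts the DNA binds interferon-stimulated response elements and switches on antiviral genes. IL-12 acts through STAT4 to raise interferon-gamma, whereas IL-2 and IL-15, on which NK cells depend, signal through JAK1, JAK3 and STAT5 without TYK2.

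The cells carried the defining genes of the labelled type: all 14 measured NK cell markers lay at or above the array median on all 9 arrays, and their mean level was 10.9 to 11.1 on Tyk2-/- arrays and 11.1 on WT arrays. Array medians lay between 5.416 and 5.479. In every genotype, experiment 1 was separated from experiments 2 and 3 along the first principal component, which held 61% of the variance. The gap was not of 1 size. Experiment 1 stood at -12.88 in Tyk2-/-, -29.09 in Tyk2K923E and -24.14 in WT, and the other arrays at 8.42 to 15.71. A difference within an experiment is free of the part of the gap that the genotypes share. The experiment was therefore a term of the fit, and values without it stand beside a result where it changes a call.

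Tyk2 itself (probe set 17524620) read 9.55, 8.63 and 8.85 in Tyk2-/- cells of experiments 1 to 3, against 8.68, 8.56 and 8.63 in WT cells. It was therefore not lower on the arrays labelled Tyk2-/-, and the difference, 0.39 on average (95% confidence interval 0.05 to 0.73, limma adjusted p = 0.488), was 0.88 in experiment 1, 0.06 in experiment 2 and 0.23 in experiment 3. Neither the deleted stretch nor the probe positions are given, so this reading does not check the labels. In RefSeq order, the 24 tested genes nearest to Tyk2 on chromosome 9, 12 on each side, had a median log2 difference of -0.05 and a range of -0.43 to 0.12. Among them 17 were lower, 2 had an unadjusted p under 0.05 and 0 passed the adjusted threshold. Cdc37, the next tested gene and the co-chaperone that hands kinases to HSP90, differed by -0.17 (adjusted p = 0.458).

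Few genes passed the threshold between the genotypes, and a handful of these differed by a large margin. With the experiments paired, 11 of 12579 genes passed an adjusted p of 0.05 (0.0874%), 3 of them higher (0.0238%) and 8 lower (0.0636%). Wdfy4, Ckap4 and Plxnb2 were higher, and Casp4, Ifi27, Ifi214, Mapk8, Rtp4, Slfn2, Itga1 and Btg2 were lower. Without the pairing 4 genes passed (0.0318%). An unadjusted p under 0.05 was reached by 1142 genes (9.08%, where 0.05 of all genes is 629), with 556 higher (4.42%) and 586 lower (4.66%), and the levels of the genotypes did not overlap in 670 genes (5.33%). Among 8283 probe sets without a single gene symbol that passed the same filter, 2 passed the adjusted threshold as well (0.0241%). The median over all genes was 0.00. Of all genes, 48% were lower, 13.6% were lower in all 3 experiments and 16.5% were higher in all 3. Counts of the gene lists below stand against these shares. Each of the 11 genes was read by 1 probe set, and with 3 arrays per genotype an exact test of 3 against 3 values could not go below 0.1, so the calls rest on the spread that limma shares between genes.

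**Figure D1:**
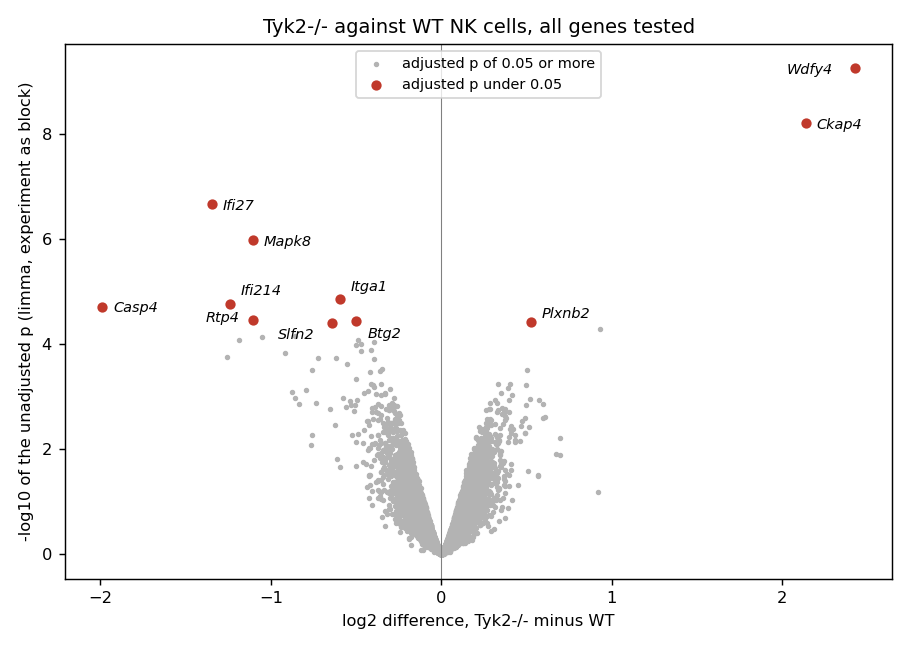
Each point is 1 of the 12579 genes, with the log2 difference of Tyk2-/- minus WT on the x axis and the -log10 of the unadjusted limma p on the y axis. The 11 genes past the adjusted threshold are red and named: Wdfy4 at 2.43 and Ckap4 at 2.14 stand far to the right, and Casp4 at -1.99 is the farthest to the left.

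Wdfy4 encodes a large BEACH domain protein that mouse dendritic cells need to cross-present antigen. Its levels were 8.23, 8.43 and 8.21 in Tyk2-/- cells and 5.77, 6.12 and 5.70 in WT cells. The groups lay far apart in every experiment. Wdfy4 rose by 2.43 (SE 0.07, 5.37-fold), with an adjusted p of 7.16e-06 in limma and of 8.29e-04 without pairing. Tyk2K923E cells, at 5.86 ± 0.25 (SD, n = 3), had the same mean as WT cells at 5.86 ± 0.22, and the test of Tyk2-/- against Tyk2K923E gave 2.43 (adjusted p = 7.01e-06). Among the 9 BEACH domain genes tested, Wdfy4 alone passed. The second by p, Lrba, which keeps the checkpoint receptor CTLA-4 from degradation, differed by 0.23 (adjusted p = 0.377), and the list median was -0.02.

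Wdfy4 is also on the list of dendritic cell markers, so the rest of that list was read beside it. Of its 14 members with a probe set, 9 were tested, 5 of them higher and 4 lower with a median of 0.02, and 4 of the 14 lay below the array median on all 9 arrays. Apart from Wdfy4, the tested members ran from -0.88 for Itgax and -0.28 for the class II chain H2-Ab1 to 0.16 for the class II chain H2-Aa and 0.17 for the chemokine receptor Ccr7, and none of these 4 passed. On all 9 arrays, 8 of the 14 lay at or above the array median. Cd209a read 10.40 to 10.42 on Tyk2-/- arrays and 10.28 to 10.77 on WT arrays. Bst2 read 9.85 to 10.22 and 10.16 to 10.24, and H2-Ab1 8.70 to 9.50 and 8.88 to 10.04. Among the dim members, the growth factor receptor Flt3 read 5.03 to 5.05 on Tyk2-/- arrays and 5.07 to 5.29 on WT arrays. The chemokine receptor Xcr1, also dim, read 4.92 to 5.12 and 4.72 to 5.12. Both were under the array median on every array. The Tyk2-/- arrays lay just below the WT arrays in Flt3, and the genotypes overlapped in Xcr1. The mean over all 14 measured members was 6.78 to 6.85 on Tyk2-/- arrays and 6.6 to 6.80 on WT arrays. It includes Wdfy4, which itself raises the mean of the Tyk2-/- arrays, so it is no reading apart from the called gene. The part of dendritic cells in the result was not tested.

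Ckap4, which encodes a membrane protein that spaces the sheets of the endoplasmic reticulum, read 7.26, 7.38 and 7.54 in Tyk2-/- cells and 5.37, 5.05 and 5.34 in WT cells. It reached the array median on all 3 Tyk2-/- arrays and on 0 of 3 WT arrays, so it entered the test through the genotype in which it was high. Ckap4 rose by 2.14 (SE 0.08, 4.40-fold, adjusted p = 3.99e-05 in limma and 4.01e-04 without pairing). Its level in Tyk2K923E was 5.42 ± 0.10 (SD, n = 3), and the difference of Tyk2-/- from it was 1.98 (adjusted p = 7.43e-05). Of the 14 tested genes that shape the endoplasmic reticulum, no other one passed. Rrbp1, which also sits in the rough sheets, differed by 0.17 (adjusted p = 0.467), and the median was 0.07. Wdfy4 and Ckap4 passed in every one of the 12 fits that left out an array or an experiment, at adjusted p of up to 0.00619 and 0.021.

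Mapk8 encodes the stress kinase JNK1, which phosphorylates c-Jun. Its levels were 6.6, 6.59 and 6.34 in Tyk2-/- cells against 7.78, 7.54 and 7.53 in WT cells. The genotypes did not overlap. Mapk8 fell by 1.11 on the log2 scale (SE 0.08, adjusted p = 0.00336 in limma and 0.0138 without pairing). In Tyk2K923E cells it stood at 7.67 ± 0.09 against 7.62 ± 0.14 in WT cells (SD, n = 3), and Tyk2-/- differed from Tyk2K923E by -1.16 (adjusted p = 0.00316). The call was lost without Tyk2-/- replicate 1 (adjusted p = 0.0594), without Tyk2-/- replicate 3 (0.0614), without experiment 1 (0.0676) and without experiment 3 (0.337), while the difference stayed at -1.12 to -1.05. Among 13 tested MAP kinase genes, 5 were lower and the median was 0.02. Mapk11, the p38-beta kinase, had the next smallest p and differed by 0.52 (adjusted p = 0.245).

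Wdfy4 and Mapk8 lie near each other on chromosome 14, with 5 RefSeq genes between them, of which 1 was tested. That gene, Arhgap22, a GTPase-activating protein of the Rac family, read 5.54 ± 0.06 in Tyk2-/- cells and 5.58 ± 0.02 in WT cells (SD, n = 3) and differed by -0.03. Beyond the pair, the 12 tested genes on each side of Wdfy4 held no other gene past the threshold, and their median was 0.01. Plxnb2, a receptor for class 4 semaphorins that rose by 0.53, stood beside Mapk11 among the tested genes of chromosome 15. Of the 11 genes, only Ifi214 and Btg2, on chromosome 1, also shared a chromosome, with 183 tested genes between them.

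**Figure D2:**
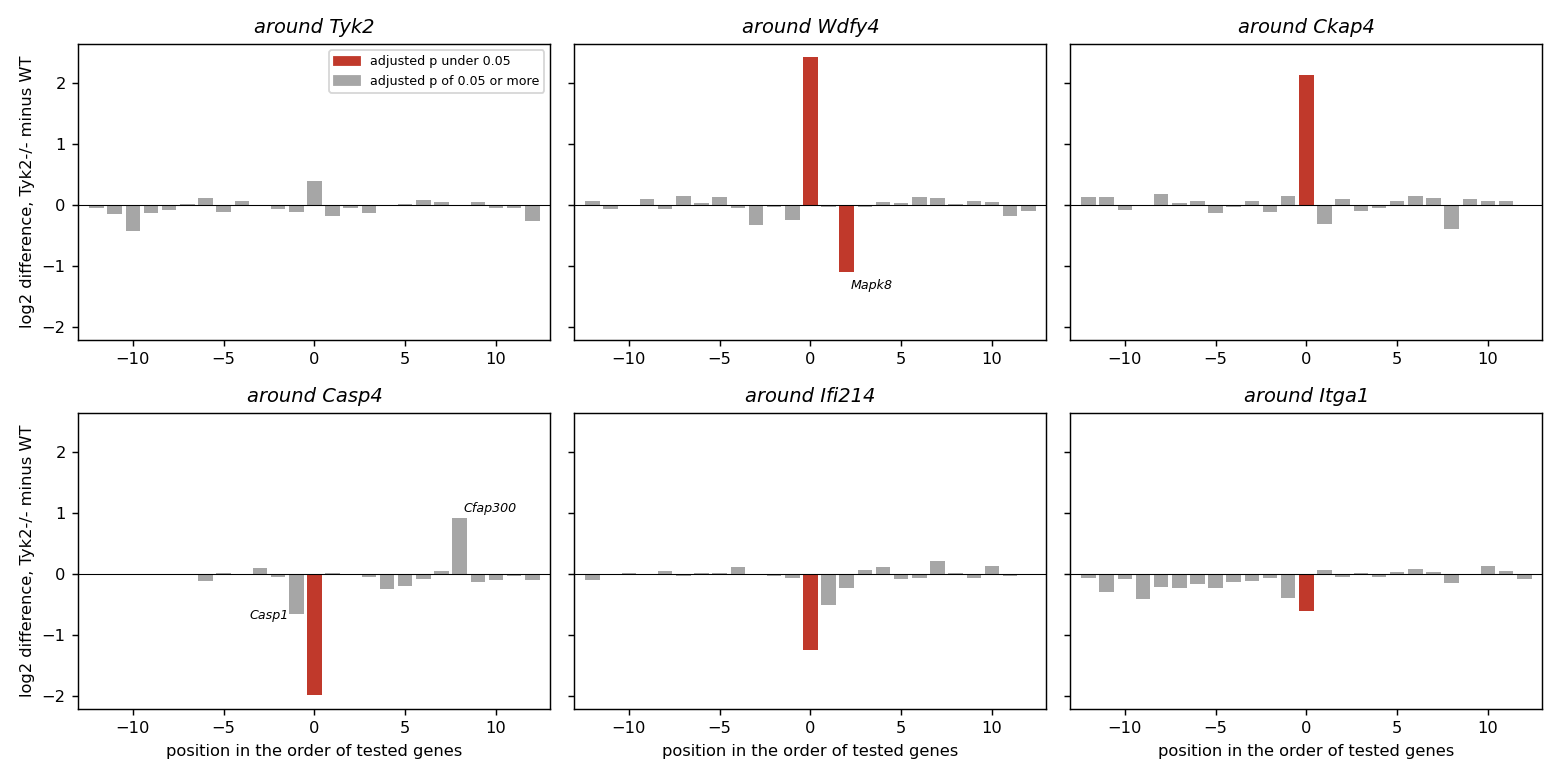
Bars give the log2 difference of Tyk2-/- minus WT for the tested genes around 6 genes, with position in the order of tested genes on the x axis (0 is the gene named above the panel). Red bars passed the adjusted threshold: Wdfy4 and Mapk8 stand 2 places apart with opposite signs, whereas the genes around Tyk2 stay between -0.43 and 0.12.

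Plxnb2 read 6.65, 6.51 and 6.69 in Tyk2-/- cells and 6.17, 5.90 and 6.20 in WT cells, a small but even difference in each experiment (SE 0.06, adjusted p = 0.0446 in limma and 0.871 without pairing). Its call was lost in each of the 12 fits that left out an array or an experiment, at adjusted p of 0.0505 to 0.644. The next higher genes by p, which missed the threshold, were Cfap300, a gene of motile cilia (0.93, adjusted p = 0.0531), the phospholipid transporter gene Abcb4 (0.51, adjusted p = 0.128) and Qser1 (0.41, adjusted p = 0.192). Tyk2K923E stood beside Tyk2-/- in both of the first named. Cfap300 was at 6.25 ± 0.39 in Tyk2-/-, 6.32 ± 0.49 in Tyk2K923E and 5.31 ± 0.26 in WT cells. Abcb4 was at 6.57 ± 0.07, 6.56 ± 0.20 and 6.07 ± 0.05 in the same order. Cfap300 reached the array median on all 3 Tyk2-/- arrays and on 1 WT array.

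**Figure D3:**
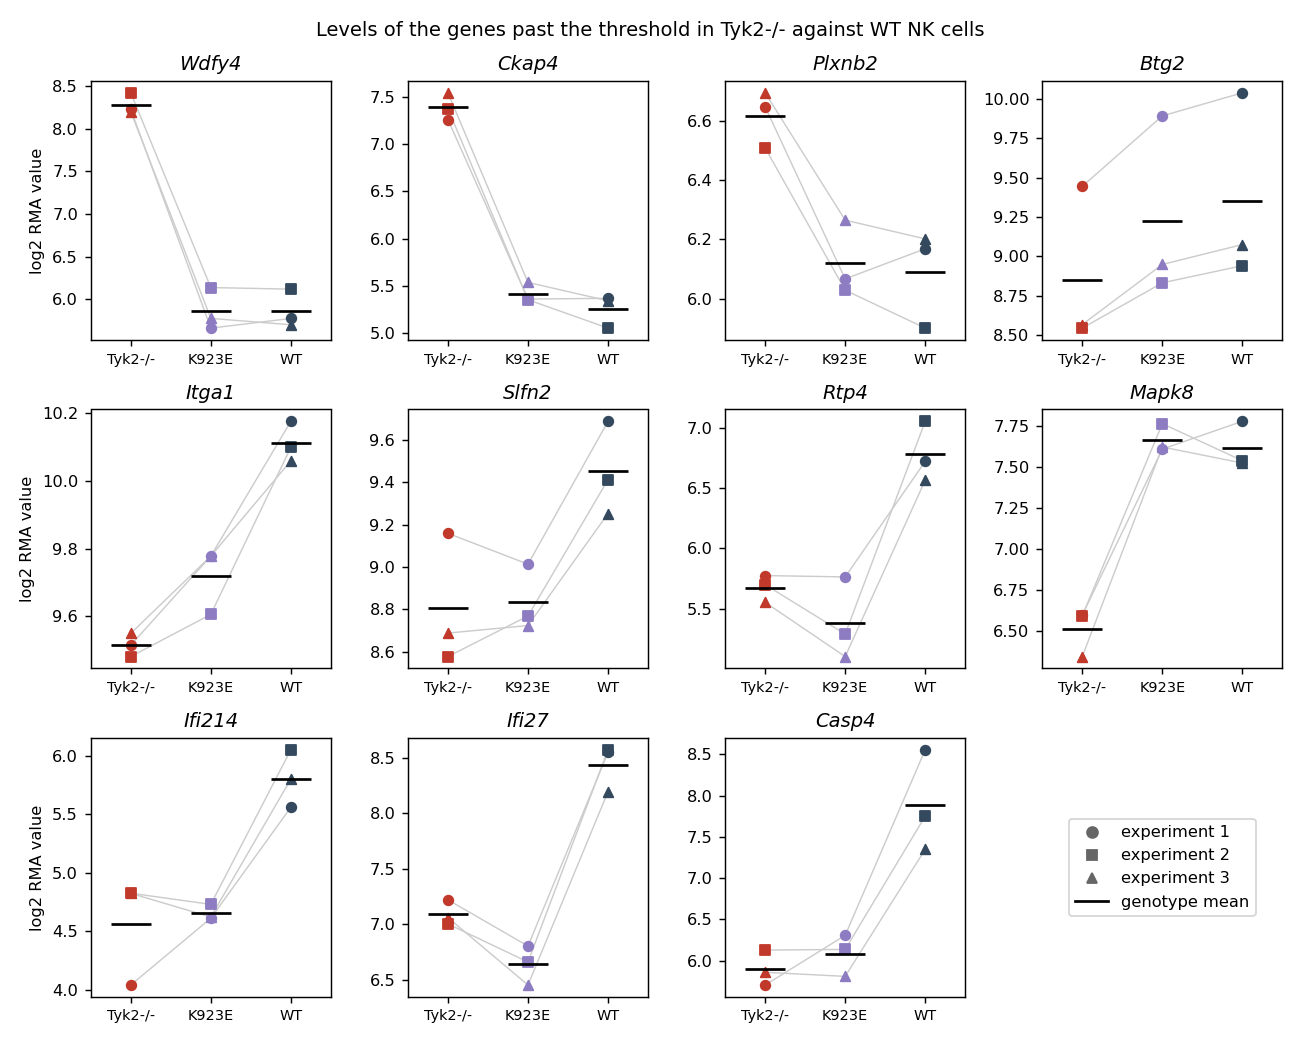
Log2 RMA values of the 11 genes past the threshold, one panel per gene with its own axis that does not start at 0. Points are arrays (circle, square and triangle for experiments 1, 2 and 3), grey lines join an experiment, and bars are genotype means, with Tyk2-/- left, Tyk2K923E in the middle and WT right. In Wdfy4, Ckap4 and Mapk8 the Tyk2K923E points lie beside WT, in Ifi27, Rtp4, Ifi214, Casp4 and Slfn2 they lie beside Tyk2-/-, and in Btg2 all arrays of experiment 1 lie above the rest.

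The receptors through which TYK2 acts differed little. Of 11 tested receptor chains, 9 were lower and 3 had an unadjusted p under 0.05, with a median of -0.11 (-0.05 without WT replicate 1) and 0 past the threshold. Ifnar1, the type I interferon receptor chain that binds TYK2, read 10.29 ± 0.19 in Tyk2-/- cells and 10.40 ± 0.11 in WT cells (SD, n = 3; difference -0.11, adjusted p = 0.67). Il12rb1, the chain of the IL-12 and IL-23 receptors that binds TYK2, was 9.84 ± 0.17 and 9.84 ± 0.04. The smallest p belonged to Il10rb, a chain shared by the IL-10 family and interferon-lambda receptors, at -0.24 (adjusted p = 0.45), followed by Il10ra at -0.18 and Il27ra at -0.21.

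Of the 10 Janus kinase and STAT genes tested, 7 were lower and none passed. Irf9, the DNA-binding part of the type I interferon complex, came closest: it read 8.02, 7.94 and 7.79 in Tyk2-/- cells and 8.58, 8.36 and 8.28 in WT cells. The groups did not overlap, and the difference of -0.49 missed the threshold (adjusted p = 0.0649). Stat2, the partner of Irf9, differed by 0.12 in the other direction. Stat4, which IL-12 signalling uses, differed by -0.22 (adjusted p = 0.521) with groups that did not overlap, and Jak2 by -0.15 (0.598). The IL-2, IL-15 and IL-18 receptor chains, which work without TYK2, were mixed, with 4 of 9 lower and a median of 0.00. Il2ra, the high-affinity IL-2 receptor chain CD25, differed by 0.33 (adjusted p = 0.377), and Il18rap, the accessory chain of the IL-18 receptor, by -0.22 (adjusted p = 0.473).

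Type I interferon-stimulated genes lay lower in Tyk2-/- cells in most members. Among the 37 tested, 34 were lower, against 48% of all genes, 23 were lower in all 3 experiments, against 13.6%, and 21 had an unadjusted p under 0.05 and a negative difference, against 4.66%. No member had such a p and a positive difference. The median was -0.25, with -0.19, -0.22 and -0.17 in experiments 1, 2 and 3. It was -0.16 with the 70th percentile filter, which kept fewer members, 22 of them lower. With no filter on dim probe sets it was -0.23. These genes were listed with results of the same arrays known, so the counts describe the list. Past the threshold over all genes were 2 members, Ifi27 and Rtp4.

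Ifi27, a small interferon-induced protein of mitochondria, read 7.22, 7.00 and 7.06 in Tyk2-/- cells and 8.55, 8.58 and 8.20 in WT cells. No arrays overlapped between the genotypes. Ifi27 fell by 1.35 (SE 0.08, adjusted p = 9.14e-04 in limma and 0.0138 without pairing). The call was lost only without experiment 1 (adjusted p = 0.111, difference -1.35), among the 12 fits that left out an array or an experiment. In Tyk2K923E cells Ifi27 was 6.64 ± 0.18 (SD, n = 3), below the Tyk2-/- arrays in each experiment, and the difference of Tyk2-/- from Tyk2K923E was 0.46 (SE 0.08, adjusted p = 0.34).

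Rtp4, an interferon-inducible chaperone for receptors that also restricts viruses, read 5.77, 5.70 and 5.55 in Tyk2-/- cells and 6.72, 7.05 and 6.57 in WT cells. Rtp4 fell by 1.11 (SE 0.13, adjusted p = 0.0446 in limma and 0.434 without pairing). Among the same 12 fits it stayed past the threshold without Tyk2K923E replicate 1 (0.0112), Tyk2K923E replicate 2 (0.0449) or WT replicate 1 (0.0392). It missed it in the other 9, at 0.111 to 0.644. Usp18, which removes ISG15 from proteins and brakes the interferon receptor, spread more between experiments, at 5.91, 6.23 and 5.94 in Tyk2-/- cells and 6.67, 7.65 and 7.54 in WT cells, and its difference of -1.26 did not pass (adjusted p = 0.0915).

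The other members held smaller differences. The antiviral GTPase Mx1 read 5.34, 5.09 and 5.51 in Tyk2-/- cells and 5.66, 5.99 and 5.91 in WT cells, a difference of -0.54 that was negative in all 3 experiments (adjusted p = 0.245). Irf7, the factor that amplifies interferon production, differed by -0.33 (adjusted p = 0.222). Isg15, a ubiquitin-like modifier, read 5.67, 5.53 and 4.74 in Tyk2-/- cells and 6.05, 5.50 and 5.50 in WT cells, so its difference of -0.37 was absent in experiment 2. Outside the list, Trim30d, of a family of interferon-inducible ubiquitin ligases, differed by -0.86 (adjusted p = 0.0649). Mx1 and Trim30d each reached the array median on all 3 WT arrays and on 1 Tyk2-/- array. Both thus entered the test through WT, where they were higher.

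**Figure D4:**
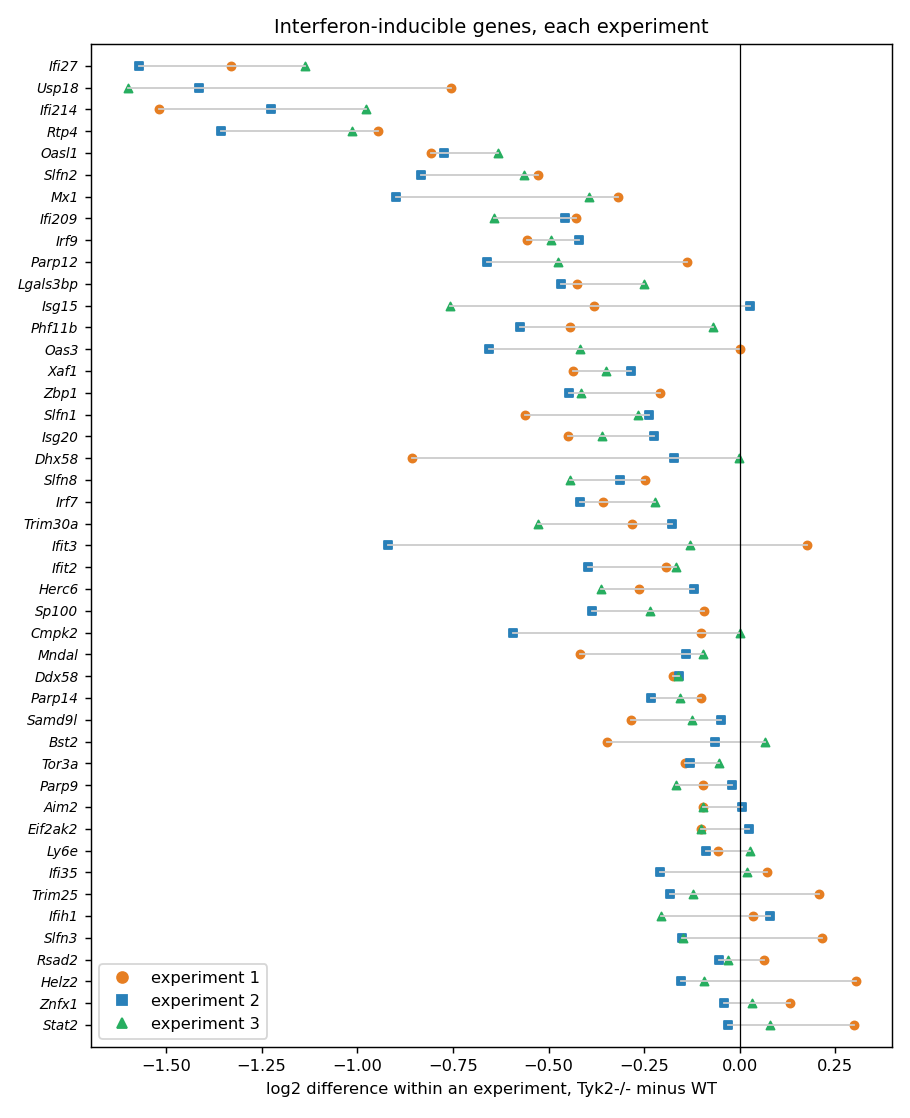
Log2 difference of Tyk2-/- minus WT within each experiment (x axis) for the 37 tested type I interferon-stimulated genes and the 8 tested PYHIN and Schlafen genes, ordered by their mean. Ifi27, Usp18, Ifi214 and Rtp4 have the lowest means and lie left of 0 in every experiment, most other points lie left of 0 too, and members such as Stat2 spread across it.

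Interferon-inducible PYHIN and Schlafen genes gave 2 further calls, both lower (0.0636% of all genes). The 8 of 16 measured members that passed the filter were lower (7 or 8 with an array or experiment left out), 6 of them in all 3 experiments, with a median of -0.35. With no filter on dim probe sets, 13 of the 16 were lower and the median was -0.05. Ifi214, of the PYHIN family of nuclear nucleic acid sensors, read 4.04, 4.82 and 4.82 in Tyk2-/- cells and 5.56, 6.05 and 5.80 in WT cells. It reached the array median on the 3 WT arrays and on none of the other 6, so it entered the test through WT. Ifi214 fell by 1.24 (SE 0.14, adjusted p = 0.0353 in limma and 0.519 without pairing), and the call was lost with no filter on dim probe sets (adjusted p = 0.12). Among the 12 fits that left out an array or an experiment it stayed past the threshold without Tyk2K923E replicate 1 (0.0112) or 2 (0.0449), and its adjusted p was 0.0594 to 0.347 in the other 10. Its next tested neighbours on chromosome 1, the PYHIN genes Ifi209 and Mndal, differed by -0.51 (adjusted p = 0.251) and -0.22, and Aim2 on the other side, the sensor of cytosolic DNA, by -0.06.

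Slfn2, a Schlafen protein that mouse T cells need to stay quiescent, read 9.16, 8.58 and 8.69 in Tyk2-/- cells and 9.69, 9.41 and 9.25 in WT cells. The highest Tyk2-/- array lay just under the lowest WT array. Slfn2 fell by 0.64 (SE 0.08, adjusted p = 0.0446 in limma and 1 without pairing), and the call was lost in each of the 12 fits, at 0.0603 to 0.644. Of the 24 tested genes nearest to Slfn2 on chromosome 11, 12 were lower and 0 passed the adjusted threshold. Among them 10 had an unadjusted p under 0.05, against 9.08% of all genes, and Ccl5 and Ccl3, described below, were 2 of these. The nearby Slfn1 and Slfn8 differed by -0.36 and -0.34 (adjusted p = 0.439 and 0.458), Slfn10-ps by 0.20 and Slfn3 by -0.03. Family members with alike sequence can share probes, and the probe sequences were not used here.

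The interferon response element was looked for in the promoters that RefSeq (GRCm38.p6) gives for these genes, from 250 bases before to 50 bases after the annotated start. The letters searched on both strands were, for its core, 2 copies of GAAA with any 2 bases between them, and TTCNNNGAA for the site that STAT dimers bind. The first stood in 943 of 27025 promoters (3.49%) and in 294 of the 9880 tested genes with an entry (2.98%). It stood in 11 of the 27 tested type I interferon-stimulated genes with an entry (40.7%), in 1 of 6 genes past the threshold and lower, Ifi214, and in 0 of 3 higher. The STAT site stood in 6.72% of tested genes, in 5 of the same 27 (18.5%) and in none of those 9. A match is a run of letters and not a measured site.

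Ifi27 and Rtp4 were not among the genes searched. Shown are Ifi214, which was the one gene to hold the core among the 9 searched of those past the threshold, Isg15, whose 3 matches run into one another, and Slfn2, which passed the threshold without a match. Capitals mark the matches of the interferon response core. That of Ifi214 lies 79 to 70 bases before the start, and those of Isg15 span 78 to 57 bases before it. The windows are chr1:173535908-173536207 on the minus strand for Ifi214, chr4:156200769-156201068 on the minus strand for Isg15 and chr11:83064862-83065161 on the plus strand for Slfn2, each printed 5′ to 3′ along the gene.
Ifi214 promoter: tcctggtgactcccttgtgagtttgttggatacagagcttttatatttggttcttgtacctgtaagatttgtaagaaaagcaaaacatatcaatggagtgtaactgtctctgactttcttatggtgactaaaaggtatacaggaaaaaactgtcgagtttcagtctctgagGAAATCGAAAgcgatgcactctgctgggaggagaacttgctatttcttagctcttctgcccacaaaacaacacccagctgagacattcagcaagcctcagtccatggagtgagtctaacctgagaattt
Isg15 promoter: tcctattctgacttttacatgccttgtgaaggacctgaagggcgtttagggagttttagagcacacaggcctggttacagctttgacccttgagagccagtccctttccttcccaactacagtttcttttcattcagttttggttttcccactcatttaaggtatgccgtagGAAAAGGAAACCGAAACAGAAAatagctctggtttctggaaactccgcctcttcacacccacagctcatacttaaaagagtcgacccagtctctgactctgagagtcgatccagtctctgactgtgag
Slfn2 promoter: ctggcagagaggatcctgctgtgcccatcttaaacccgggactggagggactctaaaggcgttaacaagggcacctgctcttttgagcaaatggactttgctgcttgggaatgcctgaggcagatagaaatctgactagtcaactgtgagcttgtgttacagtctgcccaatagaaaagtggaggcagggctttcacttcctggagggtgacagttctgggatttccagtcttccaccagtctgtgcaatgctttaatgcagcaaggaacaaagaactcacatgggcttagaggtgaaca

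Casp4, known in mice as caspase-11, senses cytosolic lipopolysaccharide and opens the pore of pyroptosis through gasdermin D. It read 5.70, 6.13 and 5.86 in Tyk2-/- cells and 8.56, 7.75 and 7.35 in WT cells. All Tyk2-/- arrays lay below all WT arrays, and the gap ran from -2.85 in experiment 1 to -1.49 in experiment 3. Casp4 fell by 1.99 (SE 0.22, 3.97-fold, adjusted p = 0.0353 in limma and 0.18 without pairing). In Tyk2K923E it was 6.08 ± 0.25 (SD, n = 3), at a difference of -0.19 from it in Tyk2-/- cells (adjusted p = 0.792). Among the 12 fits that left out an array or an experiment, Casp4 stayed past the threshold without WT replicate 1 (-1.66, adjusted p = 0.0229) and without experiment 1 (-1.56, 0.00808) and missed it in the other 10, at 0.0567 to 0.347.

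Of 13 tested genes of inflammatory caspases and inflammasomes, 11 were lower, 3 had an unadjusted p under 0.05, and the median was -0.18. That median was -0.05 without Tyk2-/- replicate 3, -0.08 without WT replicate 1 or without experiment 3 and -0.10 without WT replicate 2. Casp1, the caspase that matures IL-1-beta and IL-18, lies next to Casp4 among the tested genes of chromosome 9 and read 8.61, 8.74 and 8.06 in Tyk2-/- cells and 9.48, 9.05 and 8.82 in WT cells. The groups did not overlap, but its difference of -0.65 missed the threshold (adjusted p = 0.254). Pycard, the adaptor ASC, differed by -0.33 (adjusted p = 0.413). Between Casp4 and Tyk2 on the same chromosome stood 46 tested genes and 250 RefSeq genes.

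Genes that interferon-gamma induces, GTPases and the machinery of antigen presentation, lay lower by little in 23 of 26 members: the median was -0.09, 4 had an unadjusted p under 0.05, and none passed. Gbp3, a guanylate-binding protein, differed by -0.29 (adjusted p = 0.251), the immunity-related GTPase Irgm1 by -0.28 (0.367) and the class I heavy chain H2-K1 by -0.27 (0.298). Feedback inhibitors of cytokine signalling, among them the SOCS proteins, were balanced apart from Usp18, with 10 of 18 lower and a median of 0.00. Sh2b3, the adaptor LNK that restrains Janus kinases, differed by 0.17 (adjusted p = 0.482). IL-2 and STAT5 targets split in the same way, with 11 of 21 lower and a median of -0.01. The cell cycle kinase Cdk6 differed by 0.29 (adjusted p = 0.3) and the repressor Prdm1 by -0.17 (0.458).

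**Figure D5:**
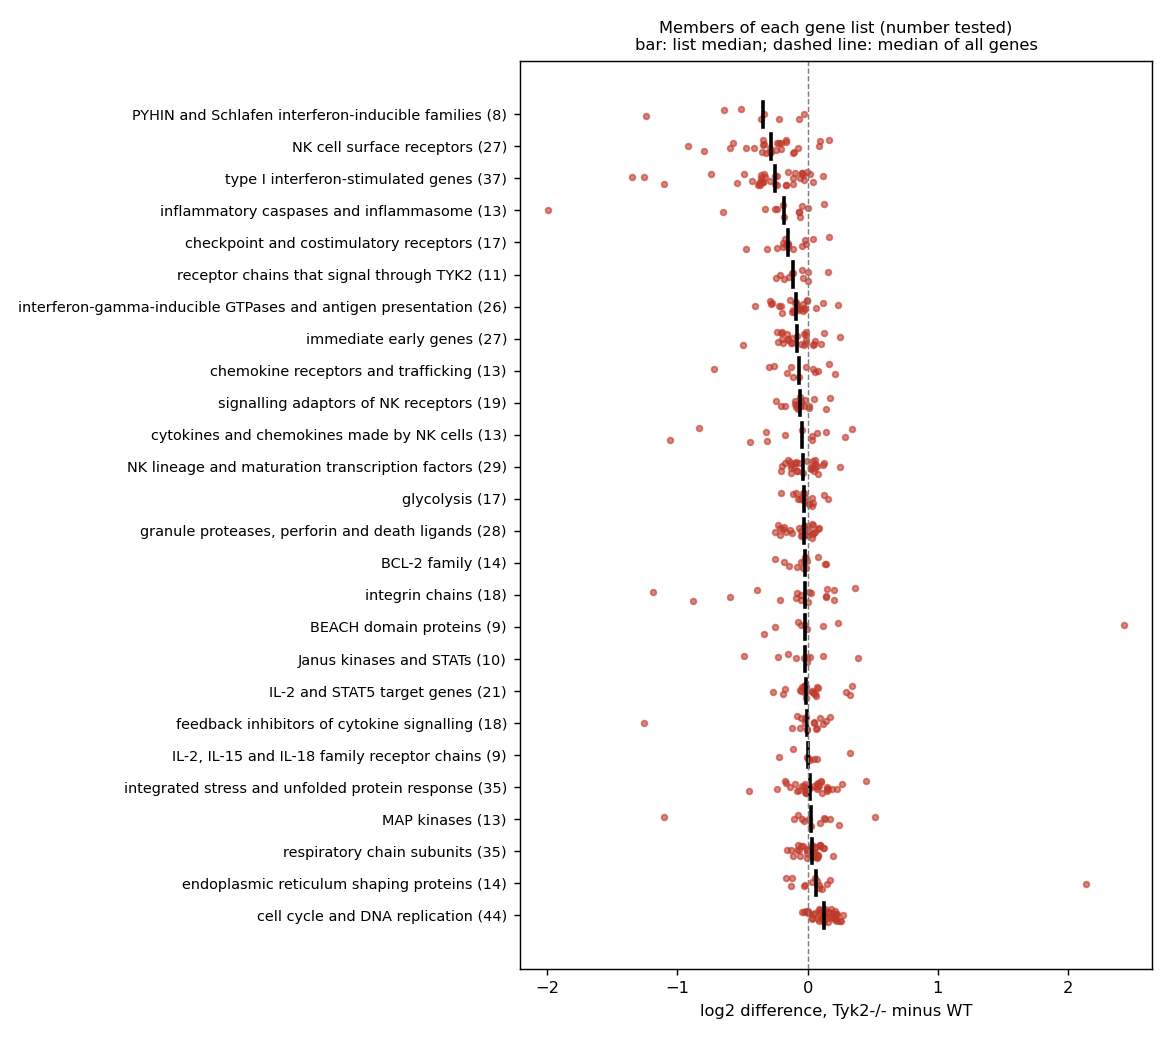
Log2 difference of Tyk2-/- minus WT (x axis) for each tested member of the gene lists (points), with the list median as a bar and the median over all genes, 0.00, as a dashed line. The PYHIN and Schlafen genes, the NK cell surface receptors and the type I interferon-stimulated genes have medians of -0.35 to -0.25, the interferon-gamma-inducible genes lie at -0.09, cell cycle genes lie at 0.13, and Wdfy4, Ckap4, Casp4 and Mapk8 stand far from the other members of their lists.

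NK cell surface receptors lay lower in 24 of 27 tested members, against 48% of all genes, with a median of -0.28 and 0 past the threshold. Lower in all 3 experiments were 17 members, against 13.6% of all genes. An unadjusted p under 0.05 and a negative difference were held by 13, against 4.66%. Fcgr3, the Fc receptor CD16 that drives antibody-dependent killing, read 9.87, 9.17 and 8.86 in Tyk2-/- cells and 10.29, 9.57 and 9.43 in WT cells. It was lower within each experiment while the genotypes overlapped across experiments, and its difference of -0.47 had an adjusted p of 0.0813. Klra9, an inhibitory Ly49 receptor for class I molecules, differed by -0.92 (adjusted p = 0.086). Cd7, an immunoglobulin-family receptor, differed by -0.79 (0.218). Klrd1, the CD94 chain that pairs with NKG2 receptors, differed by -0.35 (0.223), and Klrk1, the activating receptor NKG2D, by -0.32 (0.287). Klrb1c, the antigen NK1.1, differed by -0.29 (0.369) and Ncr1, the activating receptor NKp46, by -0.20 (0.634). In bulk RNA, fewer cells with a receptor and less of its RNA per cell cannot be told apart.

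Itga1, the collagen-binding integrin chain CD49a that marks tissue-resident lymphocytes, was the one integrin past the threshold. It read 9.51, 9.48 and 9.55 in Tyk2-/- cells and 10.18, 10.10 and 10.06 in WT cells. Both groups were tight and lay apart. Itga1 fell by 0.60 (SE 0.06, adjusted p = 0.0345 in limma and 0.0571 without pairing). Of the 12 fits that left out an array or an experiment, 1 kept the call, that without Tyk2K923E replicate 2 (0.0449), and the others gave 0.0505 to 0.434. Tyk2K923E lay between, at 9.72 ± 0.10 (SD, n = 3), and the difference of Tyk2-/- from it, -0.21, did not pass (adjusted p = 0.452).

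Integrin chains as a list were split, with 9 of 18 lower and a median of -0.02. Itga2, the CD49b chain that DX5 binds and the neighbour of Itga1 on chromosome 13, differed by -0.39 (adjusted p = 0.254). Itgam, the CD11b chain that rises as NK cells mature, read 8.74, 6.74 and 7.11 in Tyk2-/- cells and 9.57, 8.41 and 8.16 in WT cells. It differed by -0.83, -1.67 and -1.05 in experiments 1, 2 and 3, while the genotypes overlapped across experiments (-1.18, adjusted p = 0.0649). Itgax, CD11c, differed by -0.88 (adjusted p = 0.222). Markers of group 1 innate lymphoid cells other than NK cells, a list that holds Itga1, were lower in 9 of 10 tested members. Of all genes, 48% were lower. The list median was -0.16, and 3 of the lower members had an unadjusted p under 0.05, against 4.66% of all genes. The mean level of all 11 measured members was 7.63 to 7.79 on Tyk2-/- arrays and 7.75 to 8.04 on WT arrays, Il7r was below the array median on every array, and the part of such cells in the result was not tested.

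Effector genes gave no call. Of 28 tested granule and death ligand genes, 18 were lower, 4 had an unadjusted p under 0.05 and none passed, with a median of -0.02. Gzmb, granzyme B, read 13.37 ± 0.03 in Tyk2-/- cells and 13.34 ± 0.10 in WT cells, and Prf1, perforin, 13.02 ± 0.06 and 12.94 ± 0.05 (SD, n = 3). Gzma, granzyme A, differed by -0.21 and Fasl, the Fas ligand, by -0.21 (adjusted p = 0.519 and 0.455). The adaptors that link receptors to kinases had a median of -0.05, with 14 of 19 lower.

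Cytokines and chemokines made by NK cells were mixed, with 7 of 13 lower, 4 lower and 2 higher at an unadjusted p under 0.05, and a median of -0.04. That median was -0.16 without WT replicate 1, -0.13 without experiment 1 and 0.03 with the 70th percentile filter. Ccl5, the chemokine RANTES, read 9.96, 9.05 and 9.74 in Tyk2-/- cells and 10.78, 10.63 and 10.51 in WT cells. Its groups did not overlap, and the difference of -1.05 missed the threshold (adjusted p = 0.0649). Ccl3, the chemokine MIP-1-alpha, differed by -0.83 (adjusted p = 0.251), with -0.32 in experiment 1 and -1.08 and -1.10 in experiments 2 and 3. Ifng, interferon-gamma, read 6.40, 6.58 and 6.23 in Tyk2-/- cells and 6.69, 6.72 and 6.74 in WT cells (-0.31, adjusted p = 0.377). Lta, lymphotoxin-alpha, differed in the other direction, by 0.34 (0.377). Among chemokine receptors Cxcr6, which keeps lymphocytes in the liver, differed by -0.72 (0.0915) and Ccr2 by -0.29 (0.299), and the list had a median of -0.07 with 8 of 13 lower.

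Checkpoint and costimulatory receptors were lower in 15 of 17 tested members, against 48% of all genes, with a median of -0.15 and none past the threshold. Lower in all 3 experiments were 9, against 13.6% of all genes. Ctla4, the brake that competes with CD28, read 8.40, 7.12 and 6.98 in Tyk2-/- cells and 8.97, 7.48 and 7.47 in WT cells. The step between experiment 1 and the others was larger than the difference of -0.47 within experiments (adjusted p = 0.0679). Entpd1, the ectoenzyme CD39, differed by -0.31 (adjusted p = 0.254). The transcription factors of the NK lineage were balanced, with 16 of 29 lower and a median of -0.04. Tbx21, T-bet, read 8.42 ± 0.05 in Tyk2-/- cells and 8.55 ± 0.06 in WT cells, and Eomes 11.04 ± 0.05 and 10.99 ± 0.18 (SD, n = 3).

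Btg2, an antiproliferative gene that is switched on early after stimulation, read 9.44, 8.55 and 8.57 in Tyk2-/- cells and 10.04, 8.94 and 9.08 in WT cells. The genotypes overlapped, since experiment 1 was high in both, and the call comes from even differences within experiments, -0.59, -0.40 and -0.51. Btg2 fell by 0.50 (SE 0.06, adjusted p = 0.0446 in limma and 1 without pairing). It was lost in each of the 12 fits that left out an array or an experiment, at 0.0684 to 0.671. The immediate early genes around it were lower in 21 of 27 members, against 48% of all genes, with a median of -0.08. An unadjusted p under 0.05 was reached by 5, all lower, against 4.66% of all genes. Dusp6, a phosphatase that ends ERK signalling, differed by -0.24 (adjusted p = 0.344) and the transcription factor gene Egr2 by -0.20 (0.45).

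Cell cycle and replication genes were higher in 41 of 44 tested members and higher in all 3 experiments in 28, against 16.5% of all genes, yet 0 had an unadjusted p under 0.05 and the median was 0.13. Mcm5, a subunit of the replicative helicase, read 9.84, 10.59 and 10.77 in Tyk2-/- cells and 9.62, 10.47 and 10.47 in WT cells (0.21, adjusted p = 0.566). The list median was 0.21, 0.05 and 0.11 in experiments 1, 2 and 3. Its size changed with single arrays, to 0.01 without Tyk2-/- replicate 1 and 0.23 without Tyk2-/- replicate 2. Those fits also drew on the Tyk2K923E arrays. In the integrated stress and unfolded protein response, 20 of 35 members were higher, with a median of 0.02. Ddit3, the stress factor CHOP, differed by -0.45 (0.222) and the mitochondrial folate enzyme Mthfd2 by 0.26 (0.328). Glycolysis and the respiratory chain had medians of -0.03 and 0.03 and 1 member each at an unadjusted p under 0.05.

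Markers of other cells that such cultures can hold were measured beside these groups. T cell markers were present, with 12 of 14 at or above the array median on all 9 arrays, and the mean level of the 14 was 8.15 to 8.38 on Tyk2-/- arrays and 8.16 to 8.51 on WT arrays. Cd3e, the CD3-epsilon chain, read 11.1 to 11.8 in Tyk2-/- cells and 11.0 to 11.8 in WT cells. Of 13 tested T cell markers, 11 were lower, 0 had an unadjusted p under 0.05, and the median was -0.09. B cell markers lay below the array median on all 9 arrays in 9 of 11, Cd79a and Ms4a1 among them, and so did 9 of 13 neutrophil markers and 7 of 15 of monocytes and macrophages. The B cell marker Ighm, however, read 10.43 to 10.62 in Tyk2-/- cells and 10.61 to 10.83 in WT cells. Of the monocyte and macrophage markers, 4 lay at or above the median on all 9 arrays. Ly6c2 was the brightest, at 11.2 to 12.1 in Tyk2-/- cells and 11.7 to 12.6 in WT cells. The mean over all 13 measured neutrophil markers was 4.52 to 4.72 on Tyk2-/- arrays and 4.64 to 4.71 on WT arrays, below the array medians. That over the 3 tested ones, Mmp9, Ly6g and Csf3r, was 5.39 to 5.63 and 5.75 to 5.94. Mmp9 reached the array median on all 3 WT arrays and on 1 Tyk2-/- array. It thus entered the test through WT, where it was higher, so the filter has a part in the gap of this mean. Of 12 basophil and mast cell markers, 8 were below the median on all arrays, but the basophil protease Mcpt8 read 10.2 to 11.1 in Tyk2-/- cells and 9.87 to 10.3 in WT cells (0.49, adjusted p = 0.287). The part of T cells, B cells, monocytes and macrophages, basophils or neutrophils in the differences above was not tested.

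The direct test of Tyk2-/- against Tyk2K923E, which shares the Tyk2-/- arrays with the comparison above, gave 3 genes past the threshold (0.0238%), Wdfy4, Ckap4 and Mapk8. The other 8 genes called against WT did not pass there: Plxnb2 differed from Tyk2K923E by 0.50 (adjusted p = 0.102), Btg2 by -0.37 (0.242), Rtp4 by 0.29 (0.523), Ifi214 by -0.09 (0.84) and Slfn2 by -0.03 (0.924), and Ifi27, Itga1 and Casp4 are given above. Missing the threshold does not show that both genotypes read alike, and with 3 pools each the 2 genotypes may still differ by less than these fits resolve. Plxnb2 and Btg2 stood nearer to WT in Tyk2K923E cells, at 6.12 ± 0.13 and 9.22 ± 0.58 against 6.09 ± 0.17 and 9.35 ± 0.60 in WT cells (SD, n = 3). Rtp4, Ifi214 and Slfn2 stood nearer to Tyk2-/- cells, at 5.38 ± 0.34, 4.65 ± 0.07 and 8.84 ± 0.16 in Tyk2K923E against 6.78 ± 0.25, 5.80 ± 0.25 and 9.45 ± 0.22 in WT cells.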

How the data were processed

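RNA of 9 pools of cultured splenic NK cells (3 Tyk2-/-, 3 Tyk2K923E and 3 WT) was labelled with Affymetrix WT PLUS chemistry and read on 1 array each, per the labels' protocols. The deposited values were log2 RMA values from Partek 6.6, per the submitters' processing notes; the version of RMA, the genome build and the probe positions are not given in the sources used here. RMA had corrected background and scaled the arrays to each other before deposit, so levels are relative and dim values can be compressed. The values ran from 1.1 to 14.12 and were used without further change.

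The platform annotation gave 1 gene symbol to 23521 of 41345 probe sets and several to 1814, and did not list 16010. A match to RefSeq (GRCm38.p6) by Entrez ID was found for 23328, and 0 symbols changed. RefSeq served for names, gene order and promoters only. Probe sets with 1 symbol at or above the 50th percentile of their array on at least 3 of 9 arrays numbered 13245, and 12579 genes remained once the brightest was taken for each of 530 genes with more than 1. Expression was compared with limma 3.58.1 (lmFit and eBayes, R 4.3.3, with statmod 1.5.0 for random blocks) over all 9 arrays with genotype and experiment as additive terms (4 residual and 4.008 prior degrees of freedom), Benjamini-Hochberg adjustment over all genes and a threshold of 0.05. Errors after ± are SDs over 3 arrays, and differences are Tyk2-/- minus WT unless stated. Precision is limited by the number of arrays. Figures were drawn with Python 3.11.15 and matplotlib 3.10.9.

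The labels state 3 independent experiments and give each array its experiment, which pairs the arrays. Deviations from genotype means correlated at 0.383 to 0.787 between arrays of the same experiment and at -0.71 to 0.559 otherwise. All values below 0 involved an array of experiment 1. Between experiments 2 and 3 the values were 0.253 to 0.559, which overlaps the 0.383 to 0.6 within these experiments. The correlations thus set experiment 1 apart and do not clearly separate experiments 2 and 3. Each experiment used fresh pools of mice. The p-values of the paired fit rest on the spread between pools that is left once the experiment is taken out. That spread was estimated over the arrays of all genotypes and shared between genes. Steps that all genotypes share within an experiment count as spread only in the fit without pairing.

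The comparison, the 35 gene lists (703 genes, of which 635 had a probe set and 526 were tested) and the motifs were chosen with earlier results of these arrays known, and lists are therefore described by counts and medians without a test. Genes were named by rule: Tyk2, every gene past the threshold, the 10 higher and 10 lower genes with the smallest p and the same sign in all experiments, up to 4 members of each list with the smallest p, a set of central genes of interferon and NK cell biology, and the 3 nearest tested genes on each side of Tyk2 and of each called gene. Alternatives were no replicate block, a random block, only the 6 arrays compared, other filters, median centring, quantile normalisation, an intensity trend, array weights, the mean over probe sets, other thresholds and the removal of each array or experiment. The test of unnamed probe sets was added after the data were seen.

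On simulated data for Tyk2-/- against WT with 12579 genes, the paired fit recovered 67.2%, 95.5% and 100% of genes changed by log2 0.5, 1 and 2, with 12 false calls. The unpaired fit recovered 19.4%, 71.6% and 98.5%, with 1 false call. The simulation changed 67, 67 and 66 genes by these sizes, more than the 11 called in the data, and drew normal noise. With more changed genes the adjusted threshold admits larger p-values, so these shares do not give the recovery in the data.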

Additional observations from a re-analysis of the deposited data

Results flagged for a closer look

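The genes Wdfy4, Ckap4 and Mapk8 drew attention because their difference from WT in Tyk2-/- cells was not matched in Tyk2K923E cells, by a direct test of one mutant against the other. The difference of Tyk2-/- minus Tyk2K923E was 2.43 on the log2 scale for Wdfy4 (limma adjusted p = 7.01e-06), 1.98 for Ckap4 (7.43e-05) and -1.16 for Mapk8 (0.00316), in the same direction in all 3 experiments.

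A signal also appeared among probe sets that the comparison of genes left out. Of 8283 probe sets without a single gene symbol that passed the same filter, 2 (0.0241%) passed the adjusted threshold in Tyk2-/- against WT, a test added after the data were seen. Probe set 17549150 read 12.54, 12.13 and 12.14 in Tyk2-/- cells, 6.00, 6.15 and 6.18 in Tyk2K923E cells and 6.33, 6.09 and 6.29 in WT cells. Its log2 difference from WT was 6.03 (SE 0.14, limma adjusted p = 2.83e-05, and 3.2e-07 without pairing), a 65.5-fold difference on the linear scale. Probe set 17549062 read 11.73, 11.31 and 11.37 in Tyk2-/- cells, 5.41, 5.72 and 5.59 in Tyk2K923E cells and 5.90, 5.58 and 5.91 in WT cells, with a difference from WT of 5.67 (SE 0.16, adjusted p = 5.92e-05, and 6.59e-07 without pairing). Both set all 3 arrays labelled Tyk2-/- apart from the other 6. The annotation used here lists no gene for either, so what they read is not named.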

How the results depend on the processing

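The 11 calls shrank or grew with the fit. Without the replicate block, which leaves the experiments unpaired, 4 genes passed, 2 of them lower (Wdfy4, Ckap4, Ifi27 and Mapk8), and with a random block 8. The count was 6 (3 lower) with only the 6 arrays compared, 4 (again Wdfy4, Ckap4, Ifi27 and Mapk8) with no filter on dim probe sets, 19 (17 lower) with a 70th percentile filter, 22 (18 lower) with an intensity trend, robust or not, 26 (22 lower) with array weights, 26 (22 lower) at an adjusted p under 0.1 and 4 (2 lower) at 0.01. Median centring gave 12, and quantile normalisation and the mean over probe sets 11 each. Leaving out an array or an experiment gave 3 to 11 genes, 1 to 8 of them lower. Genes past the threshold and higher numbered 2 to 4 throughout. For Tyk2-/- against Tyk2K923E the count of 3 became 7 with a robust trend and 2 to 6 with an array or experiment left out. Wdfy4 and Ckap4 passed under all 23 alternatives.

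Over the named genes and alternatives, 1641 of 1803 values kept direction and side of the threshold, 105 fell short of it and 45 newly passed. The 12 that turned sign belonged to Il12rb1 (0.00 as reported; -0.0014 with quantile normalisation, -0.0325 with array weights, -0.087 to 0.066 with an array or experiment left out), Gzmb (-0.0038 with array weights, -0.0358 to 0.0724 left out) and Eomes (-0.0434 to 0.1071 left out), and the cause was not tested. With an array or experiment left out, the median of the type I interferon-stimulated genes lay between -0.30 and -0.17. With the 70th percentile filter it was -0.16. Left-out medians lay between -0.13 and -0.05 for the interferon-gamma-inducible genes and for the immediate early genes. For the granule genes they lay between -0.06 and 0.00. The limits are 3 pools per genotype, 1 probe set per called gene and relative levels. Dim probe sets such as those of Ifi214 and Ckap4 can have compressed differences, which was not tested, and no background was measured.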
